A study of Mus musculus with 8 samples.

Results

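The 10 nuclear genes described here, Tfam, Polrmt, Tfb1m, Tfb2m, Polg, Lrpprc, Slirp, Pnpt1, Supv3l1 and Ssbp1, encode proteins that copy, transcribe or stabilize mitochondrial nucleic acid. They were chosen by name, and all 10 were found, each on 1 row, among the 23084 genes of the deposited table. RNA was sequenced from CD11b+Ly6C+ (monocytic) and CD11b+Ly6G+ (granulocytic) cells sorted from spleens of C57BL/6 mice aged 6 to 8 weeks. The published description of the RNA sequencing does not state whether these mice bore tumors. The 8 samples form 4 groups of 2: wt CD11b+Ly6C+, wt CD11b+Ly6G+, Lmna KO CD11b+Ly6C+ and Lmna KO CD11b+Ly6G+ cells. In the Lmna KO animals, a Cre recombinase expressed from the Lyz2 locus (LysM-Cre) deletes floxed Lmna in myeloid cells, and whether the wt animals carried the floxed alleles or Cre is not given in the sources used here. A second label gives the markers CD11b+Ly6C+ for all samples alike, and the titles were used to tell the subsets apart.

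The value analysed for each gene is the authors' mean over samples of counts divided by size factors, named the mean signal below. It is 1 number per gene, with no value per sample, so it carries no error and no n, and no test between groups or between genes was run on it. Which samples were averaged is not given in the sources used here. The deposited table holds a comparison of genotypes, so the mean may cover only some of the 8 samples. The question of the study, whether loss of lamin A/C changes expression in these cells, is addressed in the table only by the authors' own estimates, which were not used. What follows is therefore the expression level of the 10 genes in RNA of the sorted samples, not their response to the knockout. Markers of other cell types were also present in the signals, as described below.

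Mitochondrial DNA is a small circular genome that encodes subunits of the respiratory chain together with the ribosomal and transfer RNAs needed to translate them. All proteins that replicate, transcribe and process it are imported from the cytosol. Each strand is transcribed as a long precursor, so the amounts of the individual mitochondrial mRNAs are set largely by processing, stabilization and decay after transcription.

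The median level of the 10 genes lay near the median of all protein-coding genes of the table. Per kilobase of principal coding transcript, most of the 10 lay below the median of those with a mean signal of at least 10. Mean signals ran from 52.0 for Tfb1m to 2357 for Polg, a 45.3-fold range, with a median of 360 over the 10 genes against 257 over the 15697 protein-coding genes. Because a long transcript yields more reads, mean signals do not order genes, and levels were also expressed per kilobase, by division by the exonic length of the principal coding transcript. On this scale the range narrowed to 8.11-fold, and the median was 101 per kilobase against 92.7 for all protein-coding genes. Above that median were 6 of the 10 genes and below it 4, and 8 of the 10 lay within a factor of 2 of it, as did 21.4% of all protein-coding genes. Polg lay above and Tfb1m below these bounds. These counts hold for the principal transcript. With the median coding transcript, Tfam, Ssbp1, Slirp and Polg rose to the 77.4, 69.5, 68.1 and 96.0 percentile of protein-coding genes, and the others moved lower. The median of 92.7 per kilobase of principal transcript includes 3435 genes with a mean signal under 10. Over the other 12262 genes the median was 175 per kilobase, and 1 of the 10 genes, Polg, lay above it and 9 below.

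Transcription of mitochondrial DNA needs the single-subunit RNA polymerase Polrmt, the DNA-bending and packaging protein Tfam and the initiation factor Tfb2m. Tfam (ENSMUSG00000003923) is encoded on chromosome 10 (mm10, minus strand, 71225464 to 71238280), and its mean signal was 504, or 121 per kilobase of its principal transcript of 4167 bases. Polrmt (ENSMUSG00000020329), on the same chromosome and strand (79736123 to 79746581), had a mean signal of 307, or 81.8 per kilobase. Tfb2m (ENSMUSG00000026492), on chromosome 1 (minus strand, 179528055 to 179546267), had a mean signal of 263, or 108 per kilobase. With this length the 3 components of the initiation complex lay between the 48.2 and 54.4 percentile of protein-coding genes, and the ratio of Tfam to Polrmt was 1.48. With the median length of the coding transcripts Tfam was at 601 per kilobase and the ratio was 6.91, so the size of the difference is not settled by these data.

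Tfb1m (ENSMUSG00000036983), the paralog of Tfb2m, dimethylates adenosines of the small mitochondrial ribosomal RNA. The gene is on chromosome 17 (minus strand, 3519256 to 3557781). Its mean signal was 52.0, or 37.1 per kilobase, at the 38.2 percentile. Tfb1m was the lowest of the 10 genes both in mean signal and per kilobase, with every length definition tried, and Tfb2m was 2.90-fold higher per kilobase.

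Replication is carried out by DNA polymerase gamma, whose catalytic subunit is Polg, on a template coated by the single-stranded DNA binding protein Ssbp1. Polg (ENSMUSG00000039176), on chromosome 7 (minus strand, 79446231 to 79466362), had a mean signal of 2357. Its principal transcript is the longest of the 10, 7837 bases in 23 exons, and its level per kilobase was 301, at the 71.3 percentile. Polg was the highest of the 10 on both scales, 1.75-fold above the next gene per kilobase. Ssbp1 (ENSMUSG00000029911), on chromosome 6 (plus strand, 40471352 to 40484700), had a mean signal of 412, or 93.8 per kilobase. Per kilobase, Polg was 3.21-fold higher than Ssbp1. Polg2, the accessory subunit that raises the processivity of the polymerase, was at 279 per kilobase. The ratio of Polg to Polg2 was 1.08 with this length, 2.27 with the union of exons, 1.95 with the longest transcript and 15.2 with the median coding transcript. Twnk, the replicative helicase, was at 54.0 per kilobase with the principal transcript.

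Lrpprc and Slirp form a complex that binds mitochondrial mRNAs, protects them from decay and promotes their polyadenylation. Lrpprc (ENSMUSG00000024120), on chromosome 17 (minus strand, 84705247 to 84790789), has the most exons of the 10 genes (38) and a mean signal of 579, or 132 per kilobase. Slirp (ENSMUSG00000021040), on chromosome 12 (plus strand, 87443896 to 87452206), has the fewest exons (4) and a mean signal of 208, or 77.0 per kilobase. The ratio of Lrpprc to Slirp was 1.71 with this length, but 0.369 when the median length of the coding transcripts was used, so the data do not order the partners.

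Pnpt1, an exoribonuclease, and Supv3l1, an RNA helicase, work together in degrading mitochondrial RNA. Pnpt1 (ENSMUSG00000020464), on chromosome 11 (plus strand, 29130744 to 29161828), had a mean signal of 466, or 172 per kilobase, the second highest of the 10. Supv3l1 (ENSMUSG00000020079), on chromosome 10 (minus strand, 62429209 to 62449738), had a mean signal of 239, or 91.8 per kilobase. The ratio of Pnpt1 to Supv3l1 was 1.87 and stayed between 1.51 and 1.87 over the 4 length definitions tried.

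**Figure D1:**
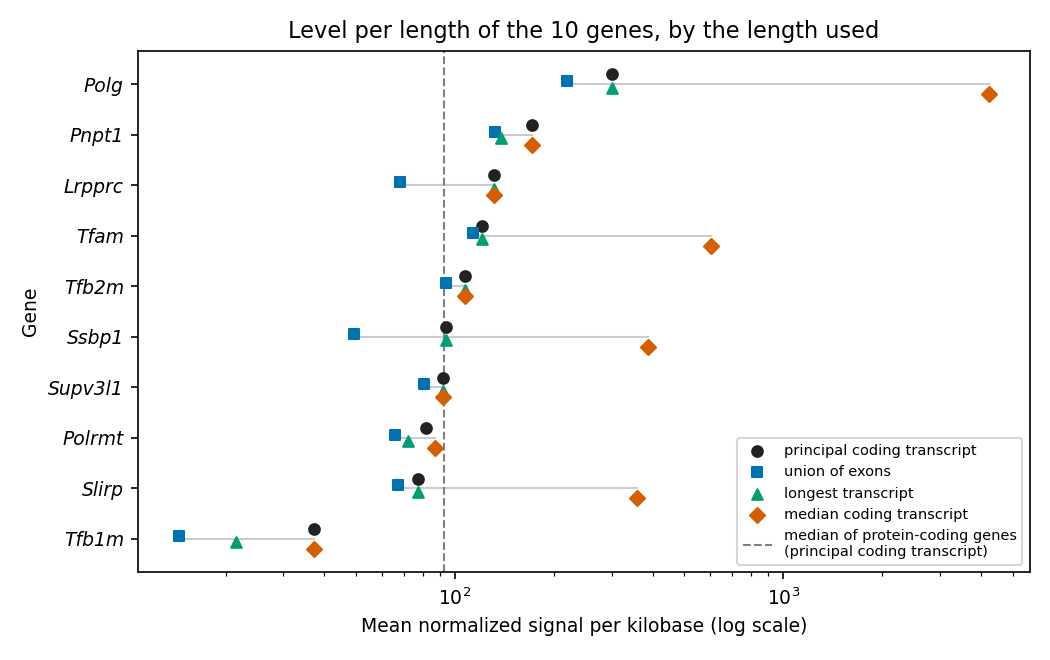
Mean normalized signal per kilobase (log axis) of the 10 genes, with 1 point for each of 4 definitions of gene length and a line between the lowest and the highest. The dashed line is the median of all protein-coding genes with the principal coding transcript (92.7). Polg is highest and Tfb1m lowest whichever length is used, while Polg, Tfam, Slirp and Ssbp1 move by more than 5 times between definitions.

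How firmly these genes can be ordered depended on how well their length is known. For Polrmt, Tfb2m, Pnpt1 and Supv3l1 the level per kilobase moved by less than 1.5 times over the 4 length definitions, and 5 of the 10 genes (Tfb1m, Tfb2m, Lrpprc, Pnpt1 and Supv3l1) have 1 annotated coding transcript. The levels of Polg, Tfam, Slirp and Ssbp1 moved by 19.4, 5.29, 5.33 and 7.86 times. For Polg, 7 of the 8 coding transcripts are annotated as incomplete, and the shortest is 149 bases long. The coding transcripts of Tfam start at 472 bases, those of Slirp at 335 and those of Ssbp1 at 579, against principal transcripts of 4167, 2701 and 4398 bases. With the median coding length in place of the principal one, Tfam rose from rank 4 to rank 2 of the 10, Ssbp1 from 6 to 3 and Slirp from 9 to 4.

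Reads of some of these genes can be shared with neighbours, since strand-specific counting is not stated. Of the 3104 exonic bases of Slirp, 2914 overlap exons of Snw1, a splicing factor gene on the opposite strand with a mean signal of 1211. In the principal transcript of Slirp, an unbroken stretch of 2403 of the 2701 bases is also Snw1 sequence. Without strand, reads from Slirp and Snw1 cannot be told apart in this stretch, and the mean signal of Slirp is uncertain to that extent. Polg shares 921 exonic bases with Fanci (mean signal 163), Supv3l1 shares 250 with 4930507D05Rik (mean signal 0.531), Tfb1m shares 142 with Tiam2 (mean signal 720) and Slirp shares 122 with Alkbh1 (mean signal 301), all on the opposite strand. Near-identical copies in the same orientation were found for 2 of the 10 genes. The pseudogene Gm1818 matches Tfb2m at 99.3% over 1187 bases, and the processed pseudogene Gm12115 matches Ssbp1 at 97.8% over 447 bases. Both were listed with low mean signals, 2.69 for Gm1818 and 2.12 for Gm12115, beside 263 and 412 for their parent genes.

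The 10 genes were then set beside lists of other genes of the same pathways. Of 47 such genes in the table, 30 lay above the median of protein-coding genes per kilobase of principal transcript (92.7). Between Tfb1m and Polg lay 32 of the 47, and these bounds are the 38.2 and 71.3 percentile of all protein-coding genes. The median of 92.7 includes genes with a mean signal under 10. Without them it was 175, and the 47 genes were not counted against it. The medians given below for replication and maintenance, other transcription and RNA processing lay below 175, and that of nucleotide supply above it. Levels and rankings in this paragraph are with the principal transcript unless stated, and some change with another length. The 14 genes of mitochondrial DNA replication and maintenance had a median of 125 per kilobase and ranged from 23.3 for the nuclease gene Exog to 279 for Polg2. With the union of exons Polg2 was at 96.6, below Lonp1 of the same list at 148. Among the 6 other transcription genes the median was 50.9. Tefm, the elongation factor of Polrmt, was at 44.4 per kilobase, so that Polrmt was 1.84-fold higher. Over the 4 length definitions, the ratio of Polrmt to Tefm stayed between 1.34 and 1.84. Mterf3 was the highest of the 6 at 259. The 22 genes of RNA processing and turnover had a median of 165 per kilobase. Hsd17b10, a subunit of the mitochondrial RNase P, was the highest of them at 620, and its partners Trmt10c and 1110008L16Rik (Prorp, the nuclease subunit) were at 101 and 27.8. Mtpap, the mitochondrial poly(A) polymerase, was at 163, and Grsf1, an RNA-binding protein of mitochondrial RNA granules, was at 343. The 5 nucleotide supply genes all lay above the protein-coding median, with a median of 238 and the thymidine kinase gene Tk2 highest at 710.

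With the principal transcript, nuclear regulators of mitochondrial genes were at a median of 332 per kilobase, 3.30-fold above the median of the 10 genes. This list median was taken with that length only. Nrf1 and Gabpa, factors known to bind promoters of mitochondrial transcription genes, were at 604 and 250 per kilobase, and Yy1 and Sp1 at 332 and 653. With the union of exons, Nrf1 was at 110, Gabpa at 219, Yy1 at 319 and Sp1 at 613. The coactivator Ppargc1a, which drives mitochondrial biogenesis in muscle and brown fat, was the lowest of the 11 at 2.09 per kilobase, its relative Ppargc1b was at 23.8 and Pprc1 at 113. Esrra, a nuclear receptor that works with these coactivators, was at 578.

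The transcripts of the mitochondrial genome itself were far more abundant than the mRNAs of the genes that make and stabilize them. The 13 protein-coding genes of the mitochondrial genome held 4.20% of the summed mean signal of the table, against 0.0213% for the 10 nuclear genes. Their median level was 46683 per kilobase, 464-fold above the median of the 10 genes. Even the lowest of them, mt-Nd4l at 7598, was 25.3-fold above Polg with the principal transcript of Polg and 1.79-fold above it with the median coding length, while its mean signal (2257) was below that of Polg. The mt-Nd4l gene is 297 bases long and overlaps mt-Nd4 on the same strand, which was at 55959 per kilobase. How reads were divided between them was not tested. The highest of the 13 was mt-Co1 at 321222 per kilobase, which encodes a cytochrome c oxidase subunit. mt-Nd6, the gene transcribed from the other strand, was at 18834, which is 230 times the level of Polrmt. Since strand-specific counting is not stated, reads from the opposite strand may be included in the level of mt-Nd6, which was not tested. The ribosomal RNAs mt-Rnr1 and mt-Rnr2 were at 13682 and 16039 per kilobase, below most of the 13 protein-coding genes. How ribosomal RNA was handled in the libraries is not given in the sources used here.

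**Figure D2:**
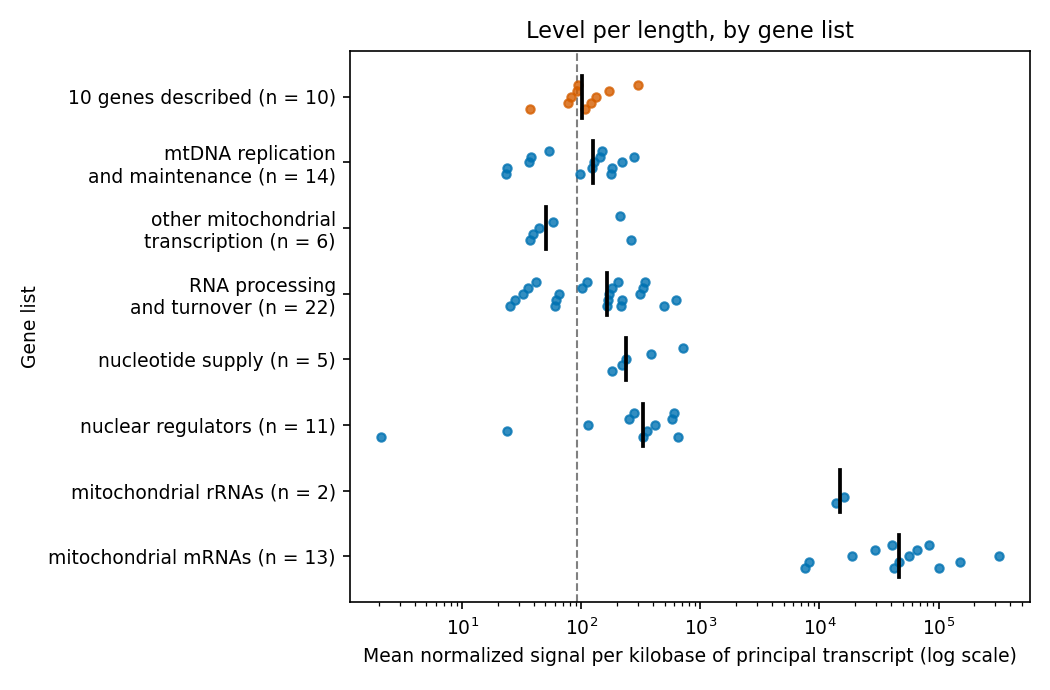
Mean normalized signal per kilobase of the principal transcript (log axis) for each gene of 8 lists, with 1 point per gene, a black bar at each list's median and a dashed line at the median of all protein-coding genes (92.7). The 10 genes described (median 101) overlap the other nuclear lists. The 13 mitochondrial protein-coding genes (labelled mitochondrial mRNAs, median 46683) and both rRNAs stand above every nuclear gene shown.

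Defining markers of several cell types were present in the mean signals, in which fewer cells of a type and less RNA per cell cannot be told apart. All 6 myeloid and monocyte markers (Itgam, Lyz2, Csf1r, Ly6c2, Ccr2 and Fn1) were at the 78.4 percentile per kilobase or higher. All 6 granulocyte markers were at the 98.8 percentile or higher, and S100a9 had the highest mean signal of the table, 725556. The 5 macrophage markers were at the 97.8 percentile or higher, and the 5 B cell markers between the 82.9 and 97.5 percentile. The 4 T and NK cell markers ranged from the 35.3 to the 77.5 percentile, and the erythroid and platelet markers from the 40.0 to the 99.4, with the haemoglobin genes highest. The part of each cell type in the signals of the 10 genes was not tested. The targeted gene, Lmna, had a mean signal of 79.5, which as a mean over samples does not check the genotype labels.

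Promoters of the 10 genes were examined because Nrf1, Gabpa and Yy1, whose mRNAs were present, are textbook regulators of this pathway. A window of 300 bases, 250 before and 50 after the RefSeq transcript start, was available for all 10 genes (RefSeq, GRCm38.p6, the assembly of mm10). Letters were searched on both strands for NRF1 (GCGCANGCG), ETS factors such as GABP (CCGGAAGT), YY1 (AANATGGCG), Sp1 (GGGCGG), the TATA box (TATAAA) and the E-box (CACGTG). An NRF1, ETS/GABP or YY1 match was found in 6 of the 10 windows, against 11.3% of all 32851 windows and 19.7% of the 15082 windows of protein-coding genes of the table. The 6 members are shown because they are the ones with such a match. Each stretch reads along the sense strand of the gene, with the matched letters in capitals (for Polrmt, 2 overlapping matches).

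Polrmt, NRF1, minus strand of chr10:79746562-79746596: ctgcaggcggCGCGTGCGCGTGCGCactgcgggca
Tfb2m, NRF1, minus strand of chr1:179546247-179546274: ctaggtcgttCGCATGCGCcattcgtaa
Supv3l1, NRF1, minus strand of chr10:62449788-62449816: tttccttcagGCGCACGCGggggcagccc
Tfam, ETS/GABP, minus strand of chr10:71238074-71238101: ctgccgcggaCCGGAAGTccgggcttcc
Polg, ETS/GABP, minus strand of chr7:79466294-79466321: aggacctcacCCGGAAGTccctctgcac
Slirp, YY1, plus strand of chr12:87443800-87443828: ccacagcagcCGCCATCTTccccatctcg

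The NRF1 letters were in 3 of the 10 windows, against 11.1% of the windows of protein-coding genes. In Polrmt they lie across the start, from 5 bases before it, on the reverse strand, and in Tfb2m 12 bases after it, also on the reverse strand. In Supv3l1 they begin 68 bases upstream. The RNA polymerase and its initiation factor thus both carry the letters within 20 bases of the RefSeq start. The ETS/GABP letters were in 2 windows, against 6.65%, 47 bases upstream in Tfam and 38 bases upstream in Polg. The YY1 letters were in 1 window, that of Slirp, against 4.15%, beginning 86 bases upstream on the reverse strand. Sp1 letters were in 7 windows, against 57.1%, with 4 matches in Tfb2m, 2 overlapping ones in Polg and none in Polrmt, Slirp or Supv3l1. TATA box letters were in 1 window, that of Polrmt, 190 bases upstream of its start, against 8.11%, and E-box letters in 0 of the 10, against 9.11%. Tfb1m, Lrpprc, Pnpt1 and Ssbp1 had an Sp1 match and none of the other 5 motifs. A match is a description of the letters and not a measured binding site.

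**Figure D3:**
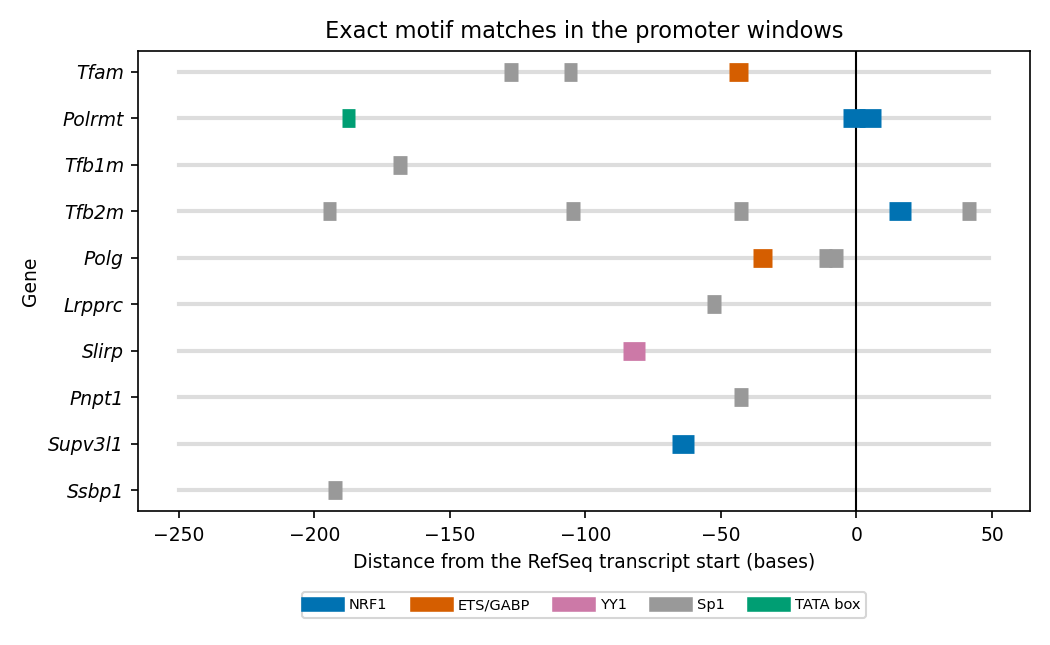
Exact motif matches in the promoter windows of the 10 genes, drawn by distance in bases from the RefSeq transcript start (vertical line), with coloured blocks for the matched letters on either strand. NRF1 blocks sit at the start of Polrmt and just after that of Tfb2m, ETS/GABP blocks 47 and 38 bases upstream in Tfam and Polg, and Sp1 blocks in 7 of the 10 windows.

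The windows were rich in CpG dinucleotides. The observed to expected CpG ratio ran from 0.586 in Tfam to 1.11 in Ssbp1, with a median of 0.890 against 0.699 in the windows of protein-coding genes. The GC content ran from 52.0% in Polrmt to 70.3% in Tfam, with a median of 60.3% against 59.7%. For Slirp and Supv3l1 the RefSeq start equals that of the principal GENCODE transcript. The GENCODE start lies 236 bases upstream of the RefSeq one in Tfam, 116 in Ssbp1 and 89 in Polg, and 228 bases downstream of it in Lrpprc. In this annotation the ETS/GABP letters of Tfam and Polg therefore fall inside the first exon of the GENCODE transcript. Short distances to a gene starting on the other strand were also found. Polg and Gm10616 start 47 bases apart, Slirp and Alkbh1 57, Tfb1m and the long noncoding RNA gene 1700102H20Rik 88, and Tfb2m and Cnst 103, all back to back. Gm10616 had a mean signal of 3.03, and no mean signal was found under the gene identifier of 1700102H20Rik. Per kilobase of principal transcript, Slirp was at 77.0 and Alkbh1 at 78.0, and Tfb2m was at 108 and Cnst at 232. The level of Slirp ran from 67.0 to 357 over the 4 length definitions and may include reads of Snw1. Whether Slirp and Alkbh1 have equal levels is therefore not settled.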

How the data were processed

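Reads were processed by the authors with Cutadapt (version 1.14), STAR 2.5.2b (two-pass mode) against mm10, RSEM (version 1.3.0) with the GENCODE annotation and DESeq2 (version 1.20.0). The deposited signal is the authors' mean over samples of counts divided by size factors, with no correction for length. The other columns of the deposited table hold a comparison of genotypes made by the authors (log2 fold change, standard error, test statistic, p-values and fold change), and none was used. The table gives no values per sample, and 0 columns of other samples were present, so the depth behind each value is unknown and no test, error or interval could be computed.

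Gene identifiers were matched without their version to GENCODE M21 (23004 of 23084 matched, 80 not). This release is later than the one the authors used with RSEM. Lengths, coding transcripts and exon overlaps were taken from M21, so they can differ from the gene models behind the counts. The effect of this difference was not tested. For a symbol on several rows, the row with the highest mean was used. The principal coding transcript is the one with the best APPRIS tag, and the longest among ties. Percentiles are over 15697 protein-coding genes. Transcripts were compared with blastn 2.17.0 (identity of at least 90%, at least 200 aligned bases), and starts of other genes were searched within 1000 bases. Python 3.11.15, pandas 2.3.3 and matplotlib 3.10.9 were used, and the functions were tested on simulated data. Genes named are the 10 genes, those of the pathway and marker lists, and genes that overlap or start beside the 10 or match their sequence. The last of these, named for a sequence match, were added after the data were seen. The 10 genes and the lists were chosen with earlier results of these data known. Alternatives were other gene lengths, a minimum mean signal, ranks without length and motif matches with 1 mismatch.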

Additional observations from a re-analysis of the deposited data

How the results depend on the processing

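No paired analysis was possible because only a mean over samples was used, and for the same reason no sample could be left out. Over the union of exons, the longest transcript and the median coding transcript in place of the principal transcript, the median percentile of the 10 genes was 53.3, 53.2 and 53.0 against 51.3, and it was 55.2 for the mean signal without length. With log2 of the level plus 1 it was the same. Among genes with a mean signal of at least 10 it was 37.6, since this filter removes 3435 genes of low signal. The median level was 74.3 per kilobase with the union of exons and 152 with the median coding transcript, against 101.

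With the union of exons, the ratio of Lrpprc to Slirp was 1.02, of Pnpt1 to Supv3l1 1.64, of Tfb1m to Tfb2m 0.153, of Tfam to Polrmt 1.73 and of Ssbp1 to Polg 0.225. With the longest transcript, the ratio of Pnpt1 to Supv3l1 was 1.51, of Tfb1m to Tfb2m 0.200 and of Tfam to Polrmt 1.69. With the median coding transcript, the ratio of Lrpprc to Slirp was 0.369, of Tfam to Polrmt 6.91 and of Ssbp1 to Polg 0.0914. Only the ratio of Lrpprc to Slirp changed sides of 1 among the 5 ratios under these lengths. With 1 mismatch, an NRF1, ETS/GABP or YY1 match was found in 10 of the 10 windows, against 62.7% of the windows of protein-coding genes. By motif, ETS/GABP was then in 8 of the 10 windows against 30.9%, NRF1 in 5 against 38.8% and YY1 in 1 against 18.0%.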
